A study of Mus musculus with 8 samples.

Results

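The genes described here are 10 members of the immunoglobulin superfamily of adhesion molecules: the Dscam pair (Dscam, Dscaml1), the sidekicks (Sdk1, Sdk2) and the contactins (Cntn1 to Cntn6). They were chosen by symbol, and all 10 were found among the 33696 genes counted. Dscam, Dscaml1, Sdk1 and Sdk2 cross the membrane and bind copies of themselves on other cells. In the retina the Dscam pair is known for keeping processes and cell bodies of the same type apart and for layering, and the sidekicks for matching synaptic partners in layers of the inner plexiform layer. Contactins are held to the membrane by a lipid anchor and act with partners on the same cell, such as the Caspr proteins (Cntnap genes), and with L1 family molecules and receptor phosphatases. Retinal ganglion cells (RGCs) send the eye's output to the brain and fall into many types, and amacrine and bipolar cells are the interneurons that feed them.

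Nuclei were profiled by droplet RNA sequencing, where a barcode names the nucleus and a unique molecular identifier (UMI) tells copied reads from separate molecules. The control group was Piezo2f/f mice, whose Piezo2 gene is floxed but which carry no Cre, with 4 libraries numbered 1 to 4. The cKO group, numbered 10 to 13, was Olig2-cre;Piezo2f/f mice, also with 4 libraries. All were female mice at postnatal day 120, with 6 retinae pooled per library and nuclei sorted for NeuN and RBPMS to enrich RGCs. Both lines were on a C57BL/6J background. Olig2-cre acts in cells of the Olig2 lineage, which includes oligodendrocytes, and sits in the Olig2 gene itself, so cKO mice keep 1 intact Olig2 copy. A group with Cre alone was not analysed here. The labels do not say whether a mouse gave nuclei to more than 1 library, so the tests measure the spread between libraries.

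Libraries held 35697629 to 60088630 UMIs, and 34944 nuclei were kept, with medians of 3661 to 9481 UMIs per nucleus by library. Nuclei were put into classes by the summed UMIs of fixed markers, which gave 21363 RGC, 3021 amacrine, 1688 bipolar, 2572 photoreceptor and 1355 Müller glia nuclei, while 1310 passed for several classes and 3635 for none. Piezo2, the targeted gene, stood in RGC nuclei at 12.0 to 17.0 UMIs per 1000000 UMIs (CPM) in control and 8.64 to 15.0 in cKO libraries, which overlap. According to the paper the knockout removes part of the Piezo2 gene. Counts of the whole gene, as used here, cannot show whether that part was lost. Any pair of libraries shared at most 11 barcodes of kept nuclei. In the Müller glia gate the 5 glial markers summed to 3377 to 4063 CPM, but the endothelial genes Flt1 (1909) and Kdr (487) were also high, beside Pecam1 at 2.45 and Cldn5 at 0.273. Among RGC nuclei, 7 types were gated by marker UMIs and are named by those genes only, from 230 nuclei (Opn4-Eomes) to 3092 (Foxp2), and 13927 RGC nuclei (65.2%) fell in none. The gates could overlap: 83 nuclei passed both Spp1 and Tbr1 and 67 both Opn4-Eomes and Spp1, the last being 29.1% of the Opn4-Eomes nuclei.

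A level is a gene's UMIs, summed over the nuclei of 1 group in 1 library and divided by all UMIs of that sum, in CPM, and ± gives the SD over libraries. Levels were not scaled to gene length, so they are compared between groups of nuclei and not between genes. Droplets without a nucleus held free RNA of all 10 genes, on average 24.0 CPM of Cntn3, 37.0 of Sdk2, 41.9 of Cntn2, 48.9 of Cntn6, 58.3 of Dscaml1, 86.0 of Sdk1, 140 of Cntn5, 143 of Dscam, 208 of Cntn4 and 254 of Cntn1. The part of free RNA in levels near or below these values was not tested. Differences were tested with edgeR's quasi-likelihood test on summed counts, with p-values adjusted over all genes tested (Benjamini-Hochberg), and genes with an adjusted p under 0.05 and a log2 fold change beyond 0.5 in either direction are termed called.

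The genes are long, from 33.8 kb (Cntn2) to 1246 kb (Cntn5), in the mouse GRCm39 annotation (GENCODE), and chromosome 6 carries 3 of them: Cntn3 (102139616 to 102550062, minus strand), Cntn6 (104469476 to 104840374, plus) and Cntn4 (105654599 to 106677105, plus). Chromosome 9 carries Cntn5 (9658790 to 10904780, minus) and Dscaml1 (45337926 to 45665010, plus). Dscam lies on chromosome 16 (96392040 to 96972145, minus), Sdk1 on chromosome 5 (141227245 to 142201341, plus), Sdk2 on chromosome 11 (113667200 to 113957872, minus), Cntn1 on chromosome 15 (91948938 to 92240393, plus) and Cntn2 on chromosome 1 (132437165 to 132470994, minus). Of the 10 genes, 7 overlap long non-coding RNA genes on the opposite strand, 3 of them for Dscam, 2 for Sdk1 and 1 each for Dscaml1, Sdk2, Cntn3, Cntn4 and Cntn5. The sources used here do not say how reads were split by strand, so counts of these pairs are uncertain.

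The 250 bases before the start of the canonical transcript are shown for Sdk1, the richest of the 10 in CpG dinucleotides, and for Dscaml1 and Cntn5, which went opposite ways in Piezo2-positive RGCs. Sequences are from GRCm39, 5′ to 3′ on the gene's strand, at chr5:141226995-141227244 (plus strand) for Sdk1, chr9:45341339-45341588 (plus) for Dscaml1 and chr9:10904781-10905030 (minus) for Cntn5, with CpG dinucleotides in capitals.
Sdk1: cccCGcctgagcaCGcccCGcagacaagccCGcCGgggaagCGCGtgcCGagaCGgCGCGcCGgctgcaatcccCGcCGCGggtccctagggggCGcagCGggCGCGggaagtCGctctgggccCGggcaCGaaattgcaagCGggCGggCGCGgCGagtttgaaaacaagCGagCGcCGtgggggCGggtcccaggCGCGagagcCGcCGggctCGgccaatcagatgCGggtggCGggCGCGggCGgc
Dscaml1: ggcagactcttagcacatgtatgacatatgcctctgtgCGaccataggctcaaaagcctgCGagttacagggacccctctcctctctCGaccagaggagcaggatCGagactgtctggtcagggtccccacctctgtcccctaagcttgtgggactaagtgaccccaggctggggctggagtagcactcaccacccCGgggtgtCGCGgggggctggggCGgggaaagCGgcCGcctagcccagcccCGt
Cntn5: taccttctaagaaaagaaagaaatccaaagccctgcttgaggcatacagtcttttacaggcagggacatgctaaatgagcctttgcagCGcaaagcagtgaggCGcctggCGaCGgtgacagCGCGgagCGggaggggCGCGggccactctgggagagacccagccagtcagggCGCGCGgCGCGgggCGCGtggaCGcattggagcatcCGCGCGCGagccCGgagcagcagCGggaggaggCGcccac
The Sdk1 stretch held 41 CpG dinucleotides, a count that 0.537% of 21408 promoters of protein-coding genes reached, Sdk2 held 25 (8.05% of promoters) and Cntn5 24 (9.26%). The Sdk2 and Dscaml1 windows lie inside the annotated genes, with canonical starts 0.828 and 3.66 kb in, and the Sdk2 window is not shown. The median over those promoters was 8, and Dscaml1 and Dscam held 11 each. Cntn3 and Cntn6 held 0, with 26.4% and 34.4% G and C against a median of 53.2%. The canonical start of Cntn3 lies 108 kb inside the annotated gene. A T-box motif (GGTGTGA, either strand, in 3.25% of promoters) was found in none of the 10 windows, and a forkhead motif (TGTTTAC, either strand, in 2.73%) only in that of Cntn6, 153 bases before the start. These are matches of letters in 1 window per gene, not sites.

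Among RGC, amacrine, bipolar and photoreceptor nuclei, Dscam was highest and Dscaml1 lowest in RGC nuclei. Dscam in RGC nuclei had a lowest, median and highest library of 969.8, 1114 and 1198 CPM, followed by amacrine nuclei at 816.6, 943 and 1108. It stood at 370 ± 83.8 in photoreceptor and 284 ± 69.0 in bipolar nuclei and at 20.1 ± 10.7 in Müller glia, where it was below the 143 CPM of empty droplets (n = 8 libraries for each class). The RGC level was above the amacrine level in 8 of 8 libraries, but the log2 fold change of 0.28 (SE 0.03) was under the call's size. Dscaml1 ran from photoreceptor nuclei, with 1025, 1430 and 1803 CPM, to bipolar nuclei (854, 946 and 1024) and amacrine nuclei (296, 332 and 365). Its RGC level was 71.0, 85.3 and 98.5 CPM (n = 8), close to the 58.3 ± 15.3 CPM of empty droplets. The photoreceptor, bipolar and RGC libraries did not overlap with each other, and the log2 fold change of RGC nuclei was -3.72 against photoreceptor nuclei (SE 0.11, adjusted p = 4.4e-15), -3.41 against bipolar nuclei (SE 0.05, 4.2e-32) and -1.87 against amacrine nuclei (SE 0.04, 8.4e-21).

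The sidekicks were both low in photoreceptors but differed elsewhere. Sdk1 was highest in amacrine nuclei (1439, 1579 and 1738 CPM) and bipolar nuclei (1232, 1387 and 1552), whose libraries overlapped, with amacrine above bipolar in 7 of 8. RGC nuclei held 551, 605 and 654 CPM, with log2 fold changes of -1.31 against amacrine (SE 0.03, adjusted p = 1.4e-20) and -1.12 against bipolar nuclei (SE 0.05, 3.8e-19). Sdk1 in Müller glia, at 19.3 ± 17.1 CPM, was under the 86.0 CPM of empty droplets. Among the 5 classes Sdk2 was highest in the Müller glia gate, with 239, 252 and 329 CPM, above bipolar nuclei (176, 228 and 259) in 7 of 8 libraries. RGC nuclei held 117, 131 and 144 CPM, with log2 fold changes of -0.82 against Müller glia (SE 0.07, adjusted p = 6.3e-13) and -0.71 against bipolar nuclei (SE 0.06, 5.3e-12). A small gate for horizontal cells, with over 10 nuclei in 3 libraries only, held 423, 552 and 808 CPM of Sdk2 from 197 UMIs, while Dscam, Dscaml1, Sdk1, Cntn3, Cntn4, Cntn5 and Cntn6 were at or below 31.1 CPM there on average (no test was made).

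Among the contactins, Cntn4, Cntn5 and Cntn6 shared 1 order at the top, with bipolar above RGC above amacrine nuclei in 8 of 8 libraries at each step. Cntn4 stood at 2250, 2406 and 2785 CPM in bipolar, 1361, 1456 and 1538 in RGC and 853, 988 and 1112 in amacrine nuclei. Cntn5 had the wider spread, with 1755, 2470 and 2888 CPM in bipolar and 1439, 1540 and 1754 in RGC nuclei, which just did not overlap. Cntn6 reached 328 ± 25.7 CPM in bipolar, 226 ± 10.2 in RGC and 139 ± 19.4 in amacrine nuclei (n = 8 each). Cntn1, which works with Caspr and neurofascin beside the nodes of myelinated axons, was highest in the Müller glia gate (754, 969 and 1083 CPM) and bipolar nuclei (703, 844 and 962), above the 566, 632 and 659 of RGC nuclei, and both of these log2 fold changes, at -0.47 (SE 0.07) and -0.39 (SE 0.05), were under the call's size. Cntn2 (TAG-1, an axonal contactin) was highest in RGC nuclei, while Cntn3 separated RGC and amacrine nuclei from the rest. Amacrine nuclei held 8.63 to 18.7 CPM of Cntn2, under the 41.9 CPM of empty droplets in every library. Cntn2 held 30.6, 37.0 and 47.7 CPM in RGC nuclei against 3.11 ± 2.11 in bipolar nuclei, where 18 UMIs were seen in all, too few for a fold. The RGC level of Cntn2 was above the 41.9 CPM of empty droplets in cKO replicates 11 (43.2) and 12 (47.7) and below it in the other libraries. Cntn3 was higher in amacrine (147, 172 and 194 CPM) than in RGC nuclei (92.8, 96.5 and 102.7), and it nearly vanished from bipolar nuclei, with 34 UMIs and 5.93 ± 4.51 CPM, under the 24.0 of empty droplets.

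**Figure D1:**
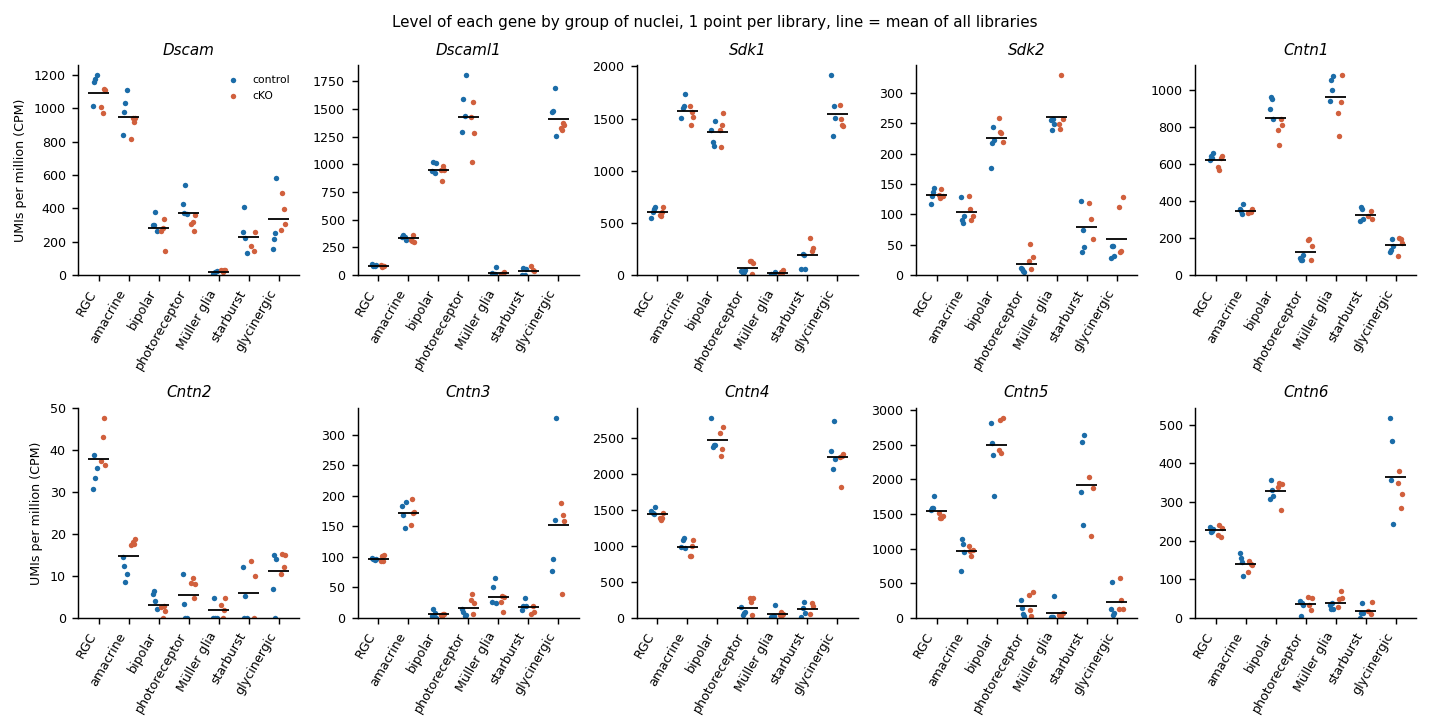
CPM of each gene (1 panel per gene, axis from 0) in nuclei gated by class and in 2 groups of amacrine nuclei, with 1 point per library (blue control, orange cKO) and a black line at the mean of all libraries. Among the groups shown, Dscaml1 is highest in photoreceptor nuclei (mean 1427) and glycinergic amacrine nuclei (1409), Sdk2 in Müller glia nuclei (260), and Cntn4 and Cntn5 in bipolar nuclei (2476 and 2498).

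Of the 10 genes, 8 were called between RGC and amacrine nuclei, where 29.0% of all 16181 genes tested were. Cntn1, Cntn2, Cntn4, Cntn5 and Cntn6 were higher in RGC nuclei, and Dscaml1, Sdk1 and Cntn3 lower. Against bipolar nuclei 8 were called (47.0% of all genes), Dscam, Cntn2 and Cntn3 higher in RGC nuclei and Dscaml1, Sdk1, Sdk2, Cntn4 and Cntn5 lower. Cntn2 and Cntn3 had too few UMIs in bipolar nuclei to be tested there between genotypes and passed the low-count filter here through RGC nuclei, so that their calls say little. Against photoreceptor nuclei all 10 were called (56.7% of all genes), all but Dscaml1 higher in RGC nuclei, and against the Müller glia gate 9 were (53.4%), all but Sdk2 higher. The same holds there for Sdk2 (67 UMIs), Cntn2 (22) and Cntn3 (60) in photoreceptor nuclei and for Dscaml1 (69), Sdk1 (60) and Cntn2 (7) in the Müller glia gate, and these counts are given as a description only. Between RGC and amacrine nuclei the median absolute log2 fold change of the 10 genes was 0.77, against 0.27 over all genes. Photoreceptor nuclei were shallow, with medians of 881.5 to 1533 UMIs, and their mean levels of Sdk1, Sdk2, Cntn1, Cntn2, Cntn3, Cntn4 and Cntn6 were below those of empty droplets. The counts ran from 8 to 10 when each library was left out in turn, an alternative chosen after seeing the data. After thinning of each nucleus to 2000 UMIs, 2 members lost the call between RGC and amacrine nuclei, Cntn4 by size alone (0.41, adjusted p = 8.6e-12) and Cntn3 from -0.75 to -0.17 (adjusted p = 0.16). All gates were applied anew to the thinned counts, so thinned groups do not hold the same nuclei as the groups above. The call of Cntn5 against bipolar nuclei was near the size limit and was lost in control libraries alone (-0.45, adjusted p = 5.5e-05) and without the low-count filter (-0.496, adjusted p = 3.2e-19).

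A list of 23 known partners of these genes was fixed alongside, of which 22 were in the files. Of these, 15 were called between RGC and amacrine nuclei, where 29.0% of all genes were. Of the 15, 11 were higher in RGC nuclei, led by Cntnap3 (1.82), Magi1 (1.43), a scaffold at junctions, and Cntnap1 (Caspr, 1.23 on the log2 scale). The 4 lower were led by Ptprz1 (-1.32), a receptor phosphatase that binds Cntn1, Cntnap5b (-0.83) and the matrix protein gene Tnr (-0.81). Against bipolar nuclei 18 of 22 were called, where 47.0% of all genes were. Ptprz1 fell by 6.36 on the log2 scale, from 767 CPM in bipolar to 9.02 in RGC nuclei.

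Among amacrine nuclei, those in the gate for starburst cells (cholinergic, gated on Chat, Slc18a3, Slc5a7 and Megf10) stood out by Cntn5. Any 2 UMIs of these genes passed, so Megf10 alone was enough. Megf10 is not particular to these cells, at 373 CPM in the Müller glia gate against 9.81 in amacrine nuclei (pooled libraries). How many nuclei passed by Megf10 alone was not tested. Of 187 nuclei in the starburst gate, the 7 of cKO replicate 11 were too few to use. In the other 7 libraries Cntn5 ran from 1184 through 1873 to 2644 CPM, higher than in other amacrine nuclei in 7 of 7 libraries (log2 fold change 1.09, SE 0.12, adjusted p = 1.7e-07). The 6 genes that fell were Dscam (229 ± 94.9 against 1000.3 ± 109 CPM), Dscaml1, Sdk1 (194 ± 106 against 1694 ± 101), Cntn3, Cntn4 (122 ± 78.1 against 1076 ± 85.1) and Cntn6, each lower in 7 of 7 libraries. Dscam, Sdk1 and Cntn4 fell by 2.15 to 3.15 on the log2 scale, while Dscaml1, Cntn3 and Cntn6 held only 55, 19 and 25 UMIs in starburst nuclei, so that their folds are not given. The starburst means of Dscaml1 (40.6), Cntn3 (16.9), Cntn4 and Cntn6 (18.4 CPM) lay under those of empty droplets. Cntn1 showed no difference past the threshold (-0.07, SE 0.11, adjusted p = 0.73). Sdk2 was not called (-0.42, SE 0.17, adjusted p = 0.082) but passed in 4 alternatives at -0.59 to -0.92, among them the stricter gate. In all, 7 of 10 were called, where 21.1% of all genes were, with the 3 members of few UMIs among them.

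Glycinergic amacrine nuclei (at least 2 Slc6a9 UMIs, not starburst, 408 nuclei) had the reverse pattern for several genes. Dscaml1 reached 1254, 1364 and 1693 CPM against 201 ± 21.9 in other amacrine nuclei, a log2 fold change of 2.82 (SE 0.09, adjusted p = 8.7e-16) without overlap of libraries. Cntn4 (2245 ± 257 against 841 ± 91.2 CPM) and Cntn6 (364 ± 89.5 against 113 ± 16.7) also rose, in 8 of 8 libraries. Cntn5 fell by 2.45 (SE 0.28, adjusted p = 5.5e-07), from 1051 ± 157 to 232 ± 207 CPM, with single libraries between 41.0 and 579 CPM. Dscam (-1.66), Cntn1 (-1.22) and Sdk2 (-0.75) fell too, and Sdk1 was at 1544 ± 178 against 1581 ± 106 CPM (-0.03, SE 0.08, adjusted p = 0.83). Again 7 of 10 were called, against 21.3% of all genes, and the call of Sdk2 was lost within cKO libraries (-0.33, adjusted p = 0.46). Cntn3 was not called (-0.14, adjusted p = 0.69) but was under the stricter gate (-2.35, adjusted p = 2.1e-08), where its mean level was 37.6 in place of 152 CPM. Of 20 partners tested, 14 were called in glycinergic nuclei, led upwards by Ptprz1 (2.32), Magi2 (1.505) and Nfasc (1.02) and downwards by Cntnap5c (-2.12), Chl1 (-1.92) and Unc5c (-1.73), a netrin receptor.

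Between RGC types the 10 genes differed in how far they varied. The ratio of the highest to the lowest type mean was 17.9 for Dscaml1, 12.4 for Sdk1, 11.6 for Sdk2, 7.42 for Cntn5, 6.94 for Cntn3 and 6.82 for Cntn4, but 1.99 for Dscam, 1.69 for Cntn2, 1.68 for Cntn6 and 1.15 for Cntn1. The lowest Dscaml1 mean, in the Spp1 type, rests on 141 UMIs and, at 10.8 CPM, lay under the 58.3 of empty droplets. The size of the Dscaml1 ratio and its place in this order are therefore uncertain. Cntn1 means lay between 599 and 688 CPM in all 7 types, and it was called in none of the 7 comparisons of a type with all other RGC nuclei. Its types had no order beyond the spread of libraries, since no neighbours in its order were separated in more than 6 of 8 libraries, and the highest type (Zic1) was above the lowest (Opn4-Eomes) in 7 of 8.

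**Figure D2:**
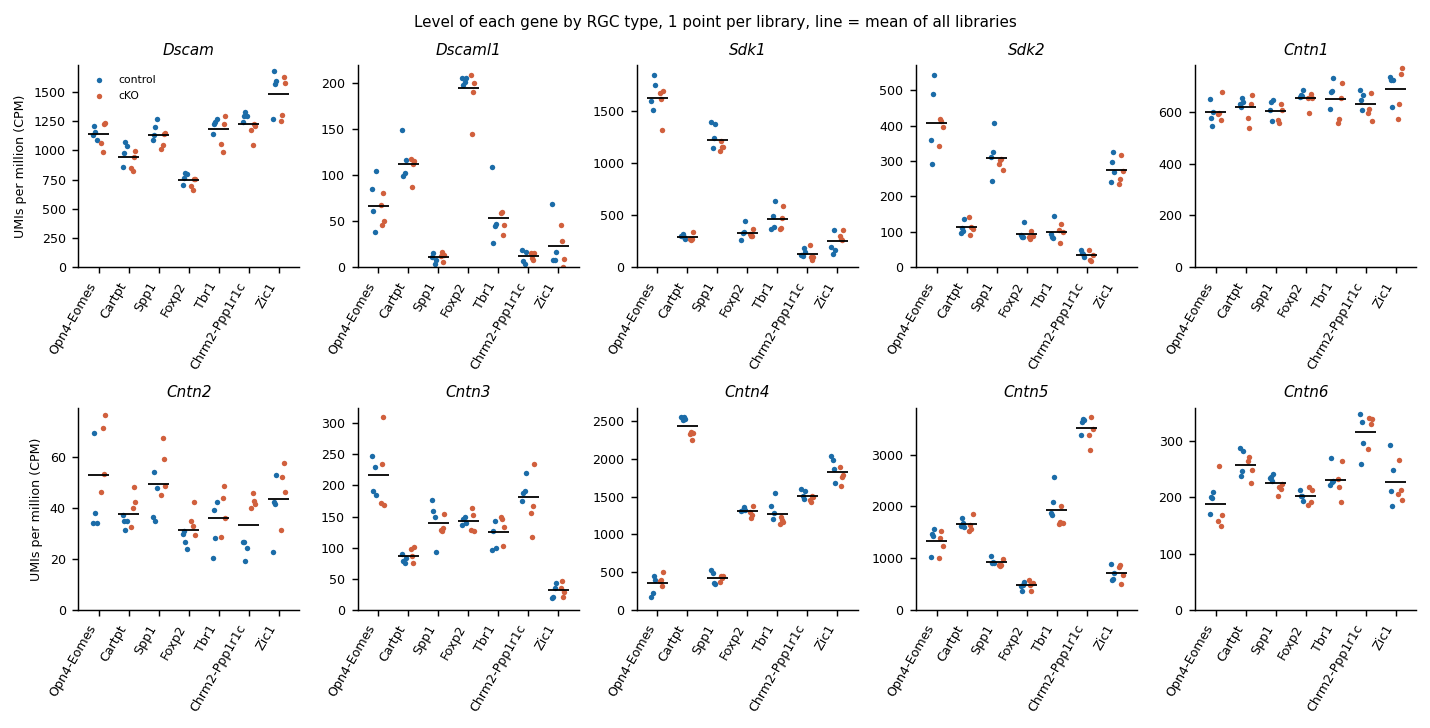
CPM of each gene (1 panel per gene, axis from 0) in 7 RGC types gated by marker UMIs, with 1 point per library (blue control, orange cKO) and a black line at the mean of all libraries. Cntn1 is near level across types, Sdk1 stands high in the Opn4-Eomes and Spp1 types (means 1623 and 1222), and Cntn5 in the Chrm2-Ppp1r1c type (3507).

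Sdk1 and Sdk2 were both highest in nuclei with Opn4 and Eomes, genes of the light-sensing melanopsin RGCs, followed by nuclei with Spp1, a marker of alpha RGCs, although for Sdk2 the Spp1 type was above the Zic1 type in 5 of 8 libraries only. In the Opn4-Eomes type Sdk1 held 1319, 1640 and 1847 CPM and Sdk2 292, 404 and 543. Both were above all other RGC nuclei in 8 of 8 libraries, by 1.39 (SE 0.06, adjusted p = 2.1e-40) and 1.59 (SE 0.08, 7.7e-37) on the log2 scale. In the Spp1 type Sdk1 held 1120, 1182 and 1394 CPM and Sdk2 243, 304 and 406, higher by 1.14 (SE 0.04) and 1.36 (SE 0.05). Both were lowest in the Chrm2-Ppp1r1c type, Sdk1 at 73.0, 114 and 210 CPM and Sdk2 at 17.3, 37.2 and 49.9, and each was below the next type in 8 of 8 libraries. The Sdk2 mean there, 35.1 CPM, was near the 37.0 of empty droplets. The Zic1 type parted them, with Sdk2 higher (275 ± 34.4 against 129 ± 8.19 CPM, 1.14, SE 0.06) and Sdk1 lower (255 ± 84.7 against 615 ± 39.6, -1.28, SE 0.08), each in 8 of 8 libraries. Over the 7 type means on the log2 scale the 2 sidekicks correlated at r = 0.80 (n = 7 types that share the same libraries, a description only). Cntn2 correlated with Sdk2 at 0.90 and with Sdk1 at 0.79, so such likeness was not particular to the sidekicks.

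Dscaml1 was carried by few of the types. It held 145, 200.1 and 208 CPM in the Foxp2 type, higher than other RGC nuclei by 1.54 (SE 0.04, adjusted p = 1.1e-26). The Cartpt type came next, at 112 ± 18.0 CPM, below the Foxp2 type in 8 of 8 libraries. Dscaml1 was lowest in the Spp1 type (10.8 ± 4.59 CPM, 141 UMIs) and the Chrm2-Ppp1r1c type (12.0 ± 5.39, 94 UMIs), under the 58.3 CPM of empty droplets. It was called lower in both, in the Zic1 type and in the Tbr1 type (-0.84, SE 0.11). In the Spp1, Chrm2-Ppp1r1c and Zic1 types few UMIs were set against higher levels in other RGC nuclei. Those folds are therefore not given, and the calls say little. The Tbr1 value was not called in the thinned fit (-1.32, adjusted p = 0.14), which kept 5 of 8 libraries and called Sdk1 instead (-1.34, adjusted p = 1.0e-07), with the median of all genes at -0.30. The Zic1 (23.0 ± 23.4) and Tbr1 (53.4 ± 25.1 CPM) means of Dscaml1 were also under that of empty droplets. Dscam moved less. It was called only in the Foxp2 type, at 742 ± 51.1 against 1150 ± 96.4 CPM (-0.60, SE 0.02, adjusted p = 3.4e-23), and was highest in the Zic1 type at 1480 ± 178 CPM (0.48, SE 0.04, under the call's size).

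Cntn5 varied from 3092, 3558 and 3732 CPM in the Chrm2-Ppp1r1c type to 373, 474 and 581 in the Foxp2 type. The first was above every other type in 8 of 8 libraries and above all other RGC nuclei by 1.33 (SE 0.03, adjusted p = 1.1e-33). The log2 fold change was -1.84 in the Foxp2 type (SE 0.05, 1.0e-26) and -1.15 and -0.78 in the Zic1 and Spp1 types. Cntn4 was highest in Cartpt nuclei, a marker of direction-selective RGCs, at 2246, 2435 and 2553 CPM (0.84, SE 0.02, adjusted p = 1.7e-27). It was lowest in the Spp1 type (341, 432 and 530) and the Opn4-Eomes type (171, 386 and 506), which fell by 1.82 (SE 0.04) and 2.09 (SE 0.08) and were the 2 types where Sdk1 was highest. Over the 7 type means Cntn4 and Sdk1 correlated at r = -0.89, again a description.

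Cntn3 was highest in the Opn4-Eomes type, at 169, 210 and 310 CPM (1.09, SE 0.09, adjusted p = 5.9e-20), and the Chrm2-Ppp1r1c type, at 117, 181 and 234 CPM (1.04, SE 0.06), which were in that order in 6 of 8 libraries. It was lowest in the Zic1 type, at 19.5, 32.3 and 46.3 CPM (-1.65, SE 0.11, adjusted p = 1.7e-18). It was also higher in the Foxp2 type (0.70, SE 0.04) and the Spp1 type (0.60, SE 0.06). Cntn6 was called only in the Chrm2-Ppp1r1c type (316 ± 32.3 against 222 ± 10.2 CPM, 0.55, SE 0.04, adjusted p = 2.9e-14), near the size limit. It was not called in control libraries alone (0.49, adjusted p = 7.6e-09) or after thinning to 2000 UMIs, and neither was thinned Cntn3 in the Chrm2-Ppp1r1c type (0.75, adjusted p = 0.076) or the Spp1 type (0.39, adjusted p = 0.73). Those thinned fits kept 6 and 3 of 8 libraries and put the median of all genes at -0.42 and -0.38 on the log2 scale, so their estimates are not on the scale of the values above. Cntn2 was called in no type with all libraries, with means of 31.3 to 52.9 CPM against 41.9 in empty droplets. In the Chrm2-Ppp1r1c type it was called in control libraries alone (-0.55, adjusted p = 0.0024) but not in cKO libraries (0.07, adjusted p = 0.83), with 19.1 to 26.8 and 40.1 to 46.0 CPM, and the difference between genotypes was not tested in that type. In the Opn4-Eomes type it was called under the stricter gate (0.55, adjusted p = 0.019).

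**Figure D3:**
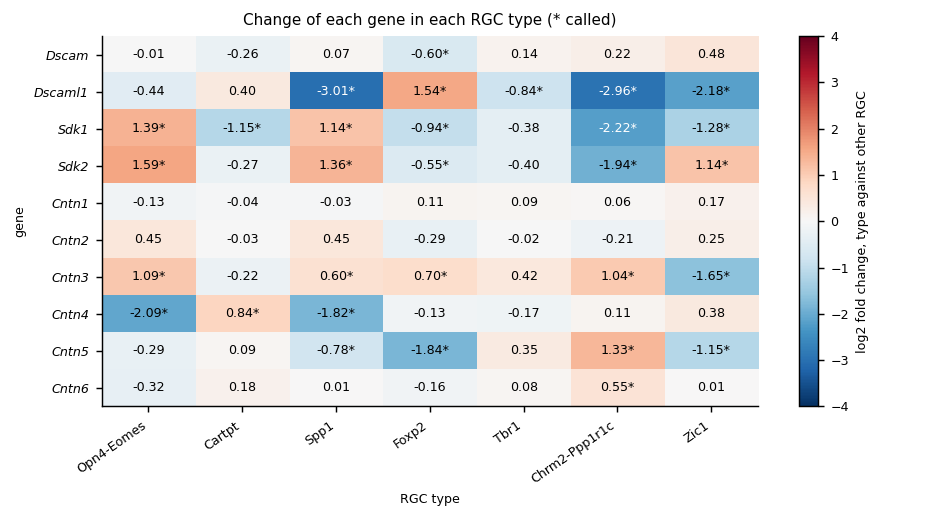
Log2 fold change (edgeR) of each gene (rows) in each RGC type (columns) against all other RGC nuclei, red higher and blue lower in the type, with an asterisk on each value that was called. The highest value is 1.59 (Sdk2, Opn4-Eomes type), and no value of Cntn1 or Cntn2 carries an asterisk. Values of Dscaml1 in the Spp1, Chrm2-Ppp1r1c and Zic1 types rest on few UMIs.

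By type, 4 of the 10 genes were called in the Opn4-Eomes type (13.3% of all genes tested), 2 in the Cartpt type (10.5%), 6 in the Spp1 type (23.2%), 6 in the Foxp2 type (12.3%), 1 in the Tbr1 type (4.88%), 6 in the Chrm2-Ppp1r1c type (11.1%) and 5 in the Zic1 type (8.90%). The counts of the Spp1, Chrm2-Ppp1r1c and Zic1 types include Dscaml1, which held few UMIs there, and are given as a description only. Spp1 nuclei were the deepest, with medians by library of 10394 to 24901 UMIs against 4701 to 11003.5 in other RGC nuclei. Chrm2-Ppp1r1c (6484 to 14057.5), Cartpt (6025 to 12843.5), Opn4-Eomes (5820.5 to 13742) and Tbr1 nuclei (5487.5 to 12583.5) also ran above the RGC nuclei outside them, whose lowest medians were 4698 to 4787 and highest 10952.5 to 11131, while Foxp2 nuclei did not (4414 to 10053 against 4880 to 11424.5). The Tbr1 count was 4 under a stricter gate, which left 3 of 8 libraries. The Cartpt count was 1 with thinning, which left 6 of 8 libraries and put Cntn4 at 0.47, with the median of all genes at -0.13.

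The partner genes differed between types as well, with 6 to 11 of 22 called per type, where 4.88% (Tbr1) to 23.2% (Spp1) of all genes were. In the Opn4-Eomes type Cntnap5c (2.45), Chl1 (1.83) and Cntnap2 (Caspr2, 1.06) rose most, and Dcc (-2.25), Magi1 (-1.73) and Tnr (-1.59) fell most. In the Cartpt type 7 of 22 were called (10.5% of all genes). Cntnap4 (Caspr4, a partner of Cntn5, 1.40) and Tnr (0.59) rose, and 5 fell, led by Chl1 (-1.88), Cntnap5b (-0.79) and Cntnap5a (-0.73). In the Chrm2-Ppp1r1c type, which held the most Cntn5, Cntnap4 fell by 2.22, Cntnap3 by 2.48 and Cntnap5c by 2.29 on the log2 scale, and Cntnap5b (1.56) was the 1 partner that rose. In the Foxp2 type Ptprz1 rose by 3.04, from 4.69 CPM in other RGC nuclei to 36.3.

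The genes most like each member over all 14 gated groups (Pearson correlation of mean log2(CPM + 1), 13962 genes, groups nested and from the same libraries) were in several cases their own overlapping partners on the opposite strand. Gm32509 followed Dscam at r = 0.998, Gm16036 and Gm16035 followed Sdk1 at 0.988 and 0.981, and 4930587E11Rik followed Cntn3 at 0.987. For the other members the closest gene did not overlap them, and these were Rabgap1 for Dscaml1 (0.949), Primpol for Sdk2 (0.805), Lipe for Cntn1 (0.928), Gm16083 for Cntn2 (0.9875), Psg16 for Cntn4 (0.945), Edil3 for Cntn5 (0.890) and Brme1 for Cntn6 (0.929).

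RGC nuclei with at least 1 Piezo2 UMI (1390 of 21363, 6.51%) were compared with those without, within each genotype, to ask which of these genes mark Piezo2-positive RGCs. In both genotypes Dscaml1 and Sdk2 fell and Cntn3 and Cntn5 rose in Piezo2-positive nuclei, and Sdk1 was lower in both, past the call's size in cKO libraries only. The fall of Dscaml1 in control libraries was known from an earlier look at these data and is no independent support. In control libraries 1 to 4 Dscaml1 stood at 46.7, 31.7, 18.9 and 16.9 CPM in positive and 102.9, 89.6, 86.6 and 101.9 in negative nuclei (log2 fold change -1.78, SE 0.18, adjusted p = 9.9e-06). In cKO libraries 10 to 13 it stood at 46.3, 32.1, 29.6 and 29.9 against 95.3, 74.2, 90.3 and 86.8 (-1.29, SE 0.15, adjusted p = 0.000355). The groups did not overlap in either genotype, and all 8 positive values were under and all 8 negative values above the 58.3 CPM of empty droplets.

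Cntn5 went the other way, at 2639, 2724, 2743 and 2715 CPM in positive against 1469, 1489, 1477 and 1649 in negative control nuclei (0.86, SE 0.06, adjusted p = 1.9e-07). In cKO libraries it was at 2402, 2339, 2291 and 2464 against 1431, 1364, 1378 and 1401 (0.80, SE 0.07, adjusted p = 5.4e-05), so all 8 positive values exceeded all 8 negative ones. Cntn3 was at 142, 165, 153 and 168 against 94.8, 90.5, 89.6 and 88.6 CPM in control (0.83, SE 0.07, adjusted p = 1.9e-06) and at 137, 137, 126 and 177 against 88.3, 98.6, 90.2 and 97.3 in cKO libraries (0.66, SE 0.11, adjusted p = 0.0068). The sidekicks differed less. Sdk1 was at 453 ± 79.6 against 625 ± 49.4 CPM in control (-0.44, SE 0.11, adjusted p = 0.0199, under the call's size) and 405 ± 65.0 against 618 ± 36.6 in cKO libraries (-0.57, SE 0.12, adjusted p = 0.0292). Sdk2 was at 91.4 ± 24.6 against 136 ± 11.7 CPM in control (-0.55, SE 0.14, adjusted p = 0.0281) and 86.0 ± 11.9 against 137 ± 6.38 in cKO libraries (-0.63, SE 0.12, adjusted p = 0.0111). Each sidekick was lower in all 4 libraries of each genotype.

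**Figure D4:**
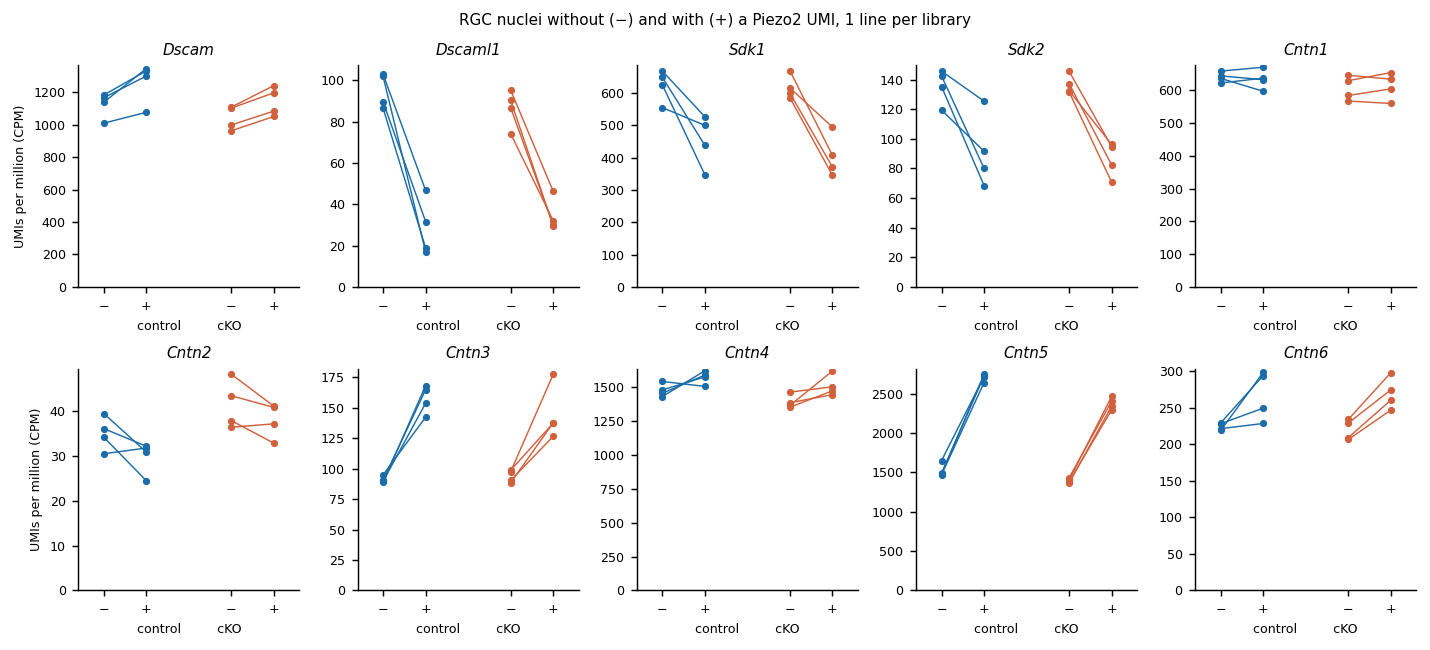
CPM of each gene (axis from 0) in RGC nuclei without (−) and with (+) a Piezo2 UMI, with 1 line per library joining both groups (blue control, orange cKO). Every Dscaml1, Sdk1 and Sdk2 line falls and every Cntn3, Cntn5 and Cntn6 line rises, while Cntn1 lines stay near level.

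Cntn1 showed no difference past the threshold in control (0.02, SE 0.06, adjusted p = 0.955) or cKO libraries (0.05, SE 0.10, adjusted p = 0.965), and neither did Cntn2 or Cntn4. Dscam was higher in all 4 libraries of each genotype without passing the threshold (0.20, adjusted p = 0.24, and 0.17, adjusted p = 0.72). Cntn6 was higher in all 4 libraries of each genotype (0.28, adjusted p = 0.047, and 0.33, adjusted p = 0.059), under the call's size. Thus 4 of 10 were called in control, where 3.88% of all genes were, and 5 in cKO libraries, where 2.11% were. The Sdk2 call in control was lost without replicate 2 (-0.42) or 3 (-0.47), while Sdk1 in control gained the call without replicate 1 (-0.54, adjusted p = 0.0052). In cKO the count fell to 3 without replicate 10, where Sdk1 (-0.55, adjusted p = 0.10) and Sdk2 (-0.61, adjusted p = 0.057) lost the call, and Sdk1 also lost it without replicate 11 (-0.54) or 13 (-0.53). These cKO folds lay close to those with all 4 libraries. After thinning to 2000 UMIs Sdk1 gained the call in control (-0.69, adjusted p = 0.0022), where Sdk2 (-0.68, adjusted p = 0.38) and Cntn3 (0.73, adjusted p = 0.10) lost it. In thinned cKO libraries Dscaml1 and Cntn5 were called, and Sdk1 (-0.53, adjusted p = 0.23), Sdk2 (-0.81, adjusted p = 0.32) and Cntn3 (0.27, adjusted p = 0.93) were not. Piezo2 status was set anew on the thinned counts, so nuclei that lost their Piezo2 UMIs passed as negative. These thinned fits therefore do not compare the same groups at equal depth.

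Piezo2-positive nuclei were deeper than negative ones (library medians of 6159 to 12981.5 against 4741.5 to 11045 UMIs), and Chrm2-Ppp1r1c nuclei made up 23.9% of them, with 42.6% of that type positive against 2.55% to 6.68% of the other 6 types. With Chrm2-Ppp1r1c nuclei left out, an alternative chosen after seeing the data where 1.40% of all genes were called in control and 0.831% in cKO libraries, Dscaml1 stayed called in control (-1.46, adjusted p = 4.7e-05) and cKO libraries (-1.04, adjusted p = 0.0048). So did Cntn5 (0.59, adjusted p = 9.8e-05, and 0.56, adjusted p = 0.0015) and Cntn3 (0.50, adjusted p = 0.0032, and 0.54, adjusted p = 0.014). Sdk1 (-0.06, adjusted p = 0.95, and -0.27, adjusted p = 0.72) and Sdk2 (-0.11, adjusted p = 0.92, and -0.32, adjusted p = 0.51) were then not called. The gate needs a UMI of both genes, so nuclei of that type in which either gene went uncounted stayed in this fit. Of all Piezo2-positive nuclei 58.8% fell in no type, and how many of them belong to the Chrm2-Ppp1r1c type was not tested. The fit therefore cannot show whether these differences hold outside that type. With all nuclei, 7 of 22 partners were called in control and 5 in cKO libraries, where 3.88% and 2.11% of all genes were. They were led downwards by Cntnap3 (-1.22 and -1.15), Cntnap4 (-1.04 and -0.86) and Chl1 (-0.97 and -0.99), and Cntnap5b alone rose (0.87 and 0.81).

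A direct test of whether the difference by Piezo2 status itself differed between genotypes called 0 of 10 genes and 0% of the 16382 genes fitted by edgeR. At an unadjusted p under 0.05 it held 804 genes, and DESeq2 called 0. The estimates for the 10 genes lay between -0.19 (Cntn3, SE 0.09) and 0.48 (Dscaml1, SE 0.18, adjusted p = 0.92).

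Finally, cKO libraries were compared with control libraries within each class, to ask whether loss of Piezo2 in the Olig2 lineage went with a change of these genes. Single members whose libraries did not overlap between genotypes are pointed out below as a description only. All 10 genes could be tested in RGC and amacrine nuclei, 8 in bipolar and 7 each in photoreceptor and Müller glia nuclei, and with all 8 libraries and a filter on low counts edgeR called none of them. Without that filter Sdk1 (1.51, adjusted p = 4.9e-06), Cntn4 (1.15, adjusted p = 5.0e-06) and Cntn5 (0.72, adjusted p = 0.016) were called in photoreceptor nuclei, where 1.18% of all genes were, although the filtered Cntn5 estimate (0.72) turned to -0.53, -0.11 and -0.24 with the order-of-magnitude step alone, barcodes of at least 1000 UMIs and thinning, and Cntn5 (-1.06, adjusted p = 0.042) in Müller glia nuclei (0.245%). In RGC nuclei 0% of 18085 genes were called, 597 had an unadjusted p under 0.05 and DESeq2 called 2, neither of them a member. Cntn5 came nearest, at 1560, 1590, 1584 and 1754 CPM in control and 1520, 1439, 1447 and 1473 in cKO libraries, which did not overlap (log2 fold change -0.21, SE 0.07, adjusted p = 0.99). Cntn4 was at 1486, 1466, 1446 and 1538 against 1390, 1361, 1383 and 1465 CPM, which overlapped (-0.15, SE 0.06, adjusted p = 0.99). The estimates of 9 of 10 genes were below 0, with a median of -0.12, against 46.6% of all genes below 0 and a median of 0.01, and Cntn2 alone was above it (0.18, SE 0.11). This count depends on the scaling, since 7 of 10 were lower in cKO libraries by mean CPM, with Sdk2 and Cntn3 near level, and Cntn3 was at 0.10 in the thinned fit.

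In amacrine nuclei 0% of 13031 genes were called, with 522 at an unadjusted p under 0.05 and 2 by DESeq2. Cntn2 was at 14.4, 12.4, 8.63 and 10.4 CPM in control and 17.3, 18.1, 17.7 and 18.7 in cKO libraries, which did not overlap (0.63, SE 0.19, adjusted p = 1). All of these lay under the 41.9 CPM of empty droplets. In bipolar nuclei 8 members were tested, 0% of 8696 genes were called, 250 had an unadjusted p under 0.05 and DESeq2 called 0. Cntn1 was lower in cKO bipolar nuclei (786 ± 60.2 against 914 ± 54.2 CPM, -0.24, SE 0.10, adjusted p = 1) without overlap of libraries.

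In photoreceptor nuclei 7 members were tested and 0% of 7291 genes were called, with 575 at an unadjusted p under 0.05 and 22 by DESeq2, none a member. Sdk1 was at 41.5, 16.1, 29.1 and 50.2 CPM in control and 136.6, 134.1, 13.95 and 116.8 in cKO libraries (1.496, SE 0.53, adjusted p = 0.45). The cKO replicate 12 stood with the control libraries, as it did for Cntn4 (34.1 against 220.3 to 271 CPM in the other cKO libraries) and Cntn1 (82.2 against 156 to 195). Without it, Sdk1 (1.89, adjusted p = 0.00088), Cntn4 (1.51, adjusted p = 0.0051) and Cntn1 (0.93, adjusted p = 0.0081) were called, where 3.05% of 6651 genes were. Of the 203 genes called in that fit, 172 were higher in cKO libraries. Replicate 12 is singled out by the values of these same members, so their calls without it are no independent support and are a description only. Summed RGC markers in these photoreceptor nuclei were at 215 to 324 CPM in control and 298 to 431 in cKO libraries, with 378 in replicate 12. Amacrine markers summed to 80.6 to 158 CPM in control and 132 to 175 in cKO libraries, and bipolar markers to 116 to 210 and 112 to 168. The gate's own photoreceptor markers summed to 18730 to 20964 CPM in control libraries and 19236 in cKO replicate 12, but to 15527, 18545 and 15857 in cKO replicates 10, 11 and 13, where Sdk1 was high. Empty droplets held 86.0 CPM of Sdk1, and the part of these differences in the result was not tested. Dscam was lower in all cKO photoreceptor libraries (267 to 362 CPM) than in control (365 to 539), at -0.47 (SE 0.16, adjusted p = 0.44).

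In the Müller glia gate 7 members were tested, 0% of 7467 genes were called, 251 had an unadjusted p under 0.05 and DESeq2 called 1, not a member. Cntn1 (912 ± 137 against 1017 ± 61.2 CPM, -0.18, SE 0.12) and Sdk2 (269 ± 40.5 against 250 ± 8.43, 0.09, SE 0.13), the members with substantial counts there, did not differ past the threshold. Control replicate 4, with 69 nuclei, held 310 CPM of Cntn5 and 182 of Cntn4, against at most 16.2 and 27.8 in the other control libraries. Without it the Cntn5 estimate, with the filter on, went from -1.08 to 1.41, neither called.

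**Figure D5:**
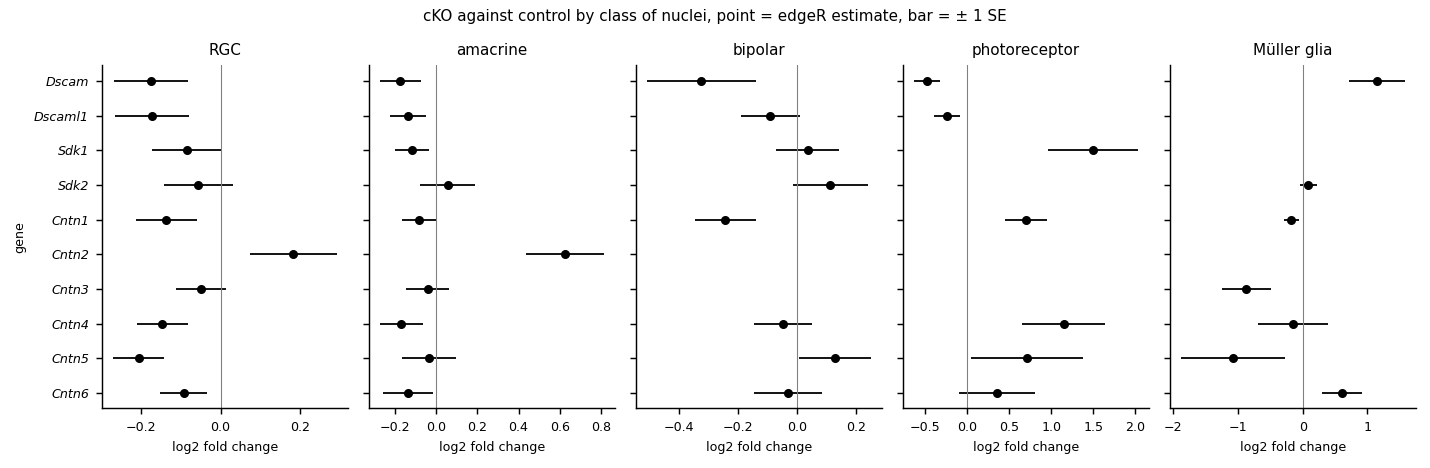
Log2 fold change (cKO against control) of each gene in nuclei of 5 classes, with points for edgeR's estimates and bars for 1 SE either side, and a scale of its own in each panel. No value was called, RGC estimates lie between -0.21 and 0.18, and the widest bars are in photoreceptor and Müller glia nuclei, where genes with too few counts to test have no point.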

How the data were processed

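Nuclei of mouse retina were sorted, and the authors made the deposited UMI counts per gene and barcode with Cell Ranger 7.0.0 and the GRCm39 reference, per the labels, while the matrix headers name Cell Ranger 4. Whether intronic reads were counted is not given in the sources used here. The matrices list every barcode, unfiltered and uncorrected for free RNA, so nuclei were called here: an order-of-magnitude step on the top 8000 barcodes plus an ambient-profile test (at least 500 UMIs), then filters on genes (at least 200), mitochondrial share (at most 5%) and outlying depth, and removal of 1377 Scrublet doublets by expected rate. Of 12695972 barcodes, 34944 were kept.

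Classes needed at least 2 markers and, per 10000 UMIs, at least 8 (RGC), 4 (amacrine), 10 (bipolar, Müller glia) or 50 (photoreceptor) marker UMIs, in exactly 1 class. Types needed at least 1 UMI of each gate gene, but 5 of Cartpt, 3 of Foxp2 and 2 of Spp1. The results for 1 further RGC type are not reported here. Starburst nuclei needed 2 UMIs of their markers. Gates were set on marker counts without members in view. Groups with at most 10 nuclei in a library were left out, which removed cKO replicate 11 for starburst nuclei.

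Counts were summed per library and group and fitted in edgeR 4.0.16 (TMM, filterByExpr) on R 4.3.3, with library as a block for classes and types. Piezo2 status was fitted without a block. Gate genes and Piezo2 were left out of the counts of called genes. DESeq2 1.42.0, RLE scaling, no filter, other nuclei calls, thinning, stricter gates and left-out libraries were alternatives. On simulated counts, 200 genes per comparison were changed by 1 on the log2 scale. Of them 100%, 98.5% and 98.5% were recovered for Spp1 type, Piezo2 status in control and cKO against control in RGC nuclei. The fits held 15599, 15653 and 18084 genes and made 5, 12 and 11 false calls. Changed genes were picked above a minimum mean count, and all genes had the same set spread. The rates therefore do not cover members with few UMIs. The text names the 10 members, up to 3 partners per direction and the closest genes by correlation. Members, lists and tests were chosen with earlier results of these data known.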

Additional observations from a re-analysis of the deposited data

Results flagged for a closer look

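Across 10 genes, 5 classes and both genotypes, 100 sets of 4 libraries were screened for a library far from the other 3 (Dixon's test), and 9 stood out, where chance flags about 1 in 20. In RGC nuclei Cntn5 was at 1754 CPM in control replicate 4, against 1560 to 1590 in the others. In bipolar nuclei Cntn4 was at 2785 CPM in control replicate 1 (others 2378 to 2411) and Cntn6 at 280 in cKO replicate 12 (others 339 to 350). In photoreceptor nuclei Sdk1 was at 14.0 CPM in cKO replicate 12 (others 117 to 137). In the Müller glia gate control replicate 4 held 70.8 CPM of Dscaml1 (others 11.6 to 15.8), 182 of Cntn4 (others 15.8 to 27.8) and 310 of Cntn5 (others 8.25 to 16.2). Also in that gate cKO replicate 13 held 32.3 CPM of Dscaml1 (others 6.03 to 10.4), and control replicate 2 held 4.63 CPM of Cntn2, which is 2 UMIs, where the other 3 control libraries had none, a set in which any UMI stands out.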

How the results depend on the processing

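The number of members called stayed within 1.5 times of its reported value in 273 combinations of comparison and alternative and moved further in 8. It became 1 in the Cartpt type with thinning to 2000 UMIs (6 of 8 libraries left), 4 in the Tbr1 type with a stricter gate (3 left), and, for Piezo2 status in cKO libraries, 2 with thinning and 3 without Chrm2-Ppp1r1c nuclei. With each library left out it ran from 3 to 5 for Piezo2 status in either genotype and from 0 to 3 for cKO against control in photoreceptor nuclei. Without the low-count filter 3 members were called between genotypes in photoreceptor nuclei (Sdk1, Cntn4, Cntn5) and 1 in Müller glia (Cntn5, whose estimate turned sign without control replicate 4). Of single members' values 26 lost and 29 gained the call, and 1 called value, Cntn6 in the Chrm2-Ppp1r1c type, went to -0.17 with thinning, in a fit whose median over all genes was -0.42, so that it stayed above the median gene. Other causes were not tested.

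Positive and negative nuclei come from the same libraries, so they are paired: with library as a replicate block the calls of members were the same 4 in control and 5 in cKO libraries, while calls over all genes rose from 602 to 771 and from 338 to 639. Thinned fits also tested fewer genes and, in some types, kept fewer libraries (3 of 8 for Spp1, 5 for Tbr1, 6 for Cartpt and Chrm2-Ppp1r1c, 7 for Zic1). Their classes, types and Piezo2 status were gated anew on the thinned counts, so their counts do not show thinning alone. In them calls over all genes were fewer, at 152 and 52 for Piezo2 status in control and cKO libraries, from 3624 to 442 in the Spp1 type, 1637 to 474 (Cartpt), 1928 to 710 (Foxp2), 754 to 135 (Tbr1), 1719 to 611 (Chrm2-Ppp1r1c), 1369 to 564 (Zic1) and 2059 of 9659 to 761 of 2704 in glycinergic nuclei, and from 4695 to 2694, 7343 to 4861 and 8877 to 4760 for RGC against amacrine, bipolar and photoreceptor nuclei. Without Chrm2-Ppp1r1c nuclei they were 215 in control and 133 in cKO libraries, without control replicate 2 356, without cKO replicate 11, 12 or 13 218, 191 and 203, and 498 for Tbr1 in control libraries alone. Between genotypes the unfiltered fit called 37 genes in amacrine, 27 in bipolar, 256 in photoreceptor and 52 in Müller glia nuclei and 13 for the difference by Piezo2 status, and 203 were called in photoreceptor nuclei without cKO replicate 12. Thinning left out 5445 nuclei and could not be fitted for the starburst and Opn4-Eomes comparisons.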
